A study of Mus musculus with 168 samples.

Results

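The quiescent cells described here are single cells of the mouse subventricular zone (SVZ) that come in a pair of series, told apart only by the name of their column. They are 57 of the 65 cells of the series named ogp2 and 50 of the 68 cells of the series named ogp, out of 133 SVZ cells and 150 cells in all. A cell was counted as quiescent when ribosomal protein transcripts made up less than 5% of its TPM (a transcript abundance scaled to the same total in every cell), a share called R. Because R uses 89 ribosomal protein genes, the levels of those genes are given as a description only. R had a median of 1.62% in ogp2 cells (0.911 to 4.19) and 1.87% in ogp cells (0.659 to 3.81), and the first cells beyond the limit stood at 5.14% in ogp2 and 5.15% in ogp.

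All SVZ cells of both series carry the same labels. They came from male C57BL/6 mice labelled 23 months old (the protocol gives 22, with 4 mice pooled), were sorted as GLAST and CD133 positive and CD45 and O4 negative, picked by hand and read by Smart-seq2, a method that copies whole polyadenylated transcripts from 1 cell at a time. Astrocytes of mice labelled 25 months old, 13 cells from striatum and 4 from cortex, were sorted on GLAST, leaving out cells with CD45 or O4, and deposited in a separate table. The labels say neither what divides ogp2 from ogp nor what the cell number at the end of a name means, so animals, days and plates cannot be told apart. No animal is named for a cell, and each series therefore counts as 1 sample. No difference between the series was tested, every SD is a spread between cells, and intervals on shares of cells (exact Clopper-Pearson, 95%) cover counting error only. Read depth is unknown, as TPM keeps none.

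The SVZ holds the neural stem cells that renew olfactory bulb neurons in adult mice. Most of these stem cells are quiescent in old animals. A quiescent stem cell shares much of the expression of an astrocyte, with glutamate uptake, lipid handling and low levels of ribosomal protein and cell cycle transcripts. Transcripts that stand at a like level in both series describe such cells whichever series is read. The comparison of the series asks which transcripts do not.

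The RNA given to mark the difference between the series was Rn7s1, a gene for 7SL RNA. 7SL RNA is the scaffold of the signal recognition particle, which binds signal peptides as they leave the ribosome and brings the ribosome to the Sec61 channel of the endoplasmic reticulum. It is made by RNA polymerase III and does not receive the poly(A) tail of a messenger RNA. A further gene of 7SL RNA, Rn7s2, has 0 differences from Rn7s1 in the GENCODE M21 transcripts. The deposited values of both copies were equal in 150 of 150 cells, so reads cannot be assigned to either, and the values below stand for each copy alone.

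Rn7s1 stood at a median of 3810 TPM in ogp2 quiescent cells (lowest 684, highest 7661) and at 953 TPM in ogp quiescent cells (lowest 58.0, highest 11896). The ogp cells thus spanned the whole range of the ogp2 cells and went beyond it at both ends. At least 1000 TPM were found in 56 of 57 ogp2 cells (98.2%, interval 90.6 to 99.96) and in 25 of 50 ogp cells (50%, interval 35.5 to 64.5). The means were 4023 TPM (SD 1847) in ogp2 and 2454 TPM (SD 2996) in ogp, a log2 difference of 0.71, while the log2 ratio of the medians was 2.00. Without the 4 quiescent ogp cells whose deposited values sum to less than 500000, the ogp median was 1053 TPM and the log2 ratio of medians 1.86.

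Cells above the limit on R had a like difference. Rn7s1 had a median of 4310 TPM in 8 ogp2 cells with R of 5 or more (468 to 10065) and 853 TPM in 18 such ogp cells (79.97 to 4312). Striatal astrocytes had a median of 6.87 TPM (0 to 112) and cortical astrocytes 19.1 TPM (8.35 to 67.7). The highest astrocytes thus reached the lowest ogp cells and stayed below every ogp2 quiescent cell. The astrocyte table was made separately, so this level is set across tables.

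**Figure D1:**
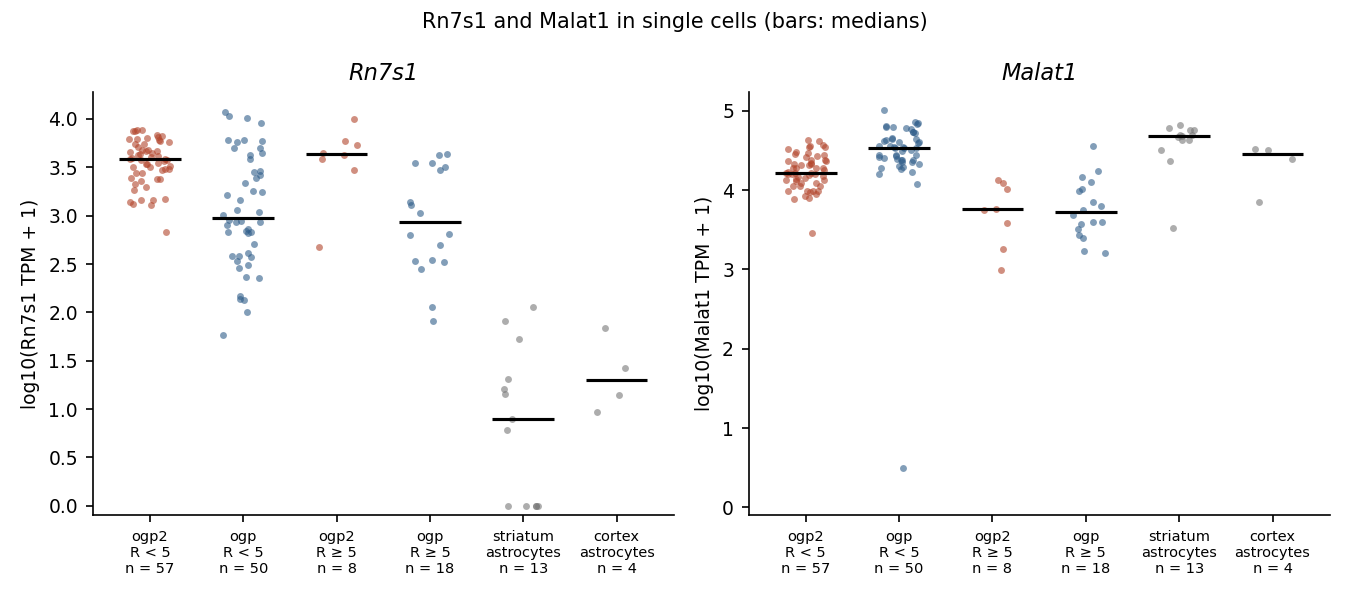
Each point is a cell and each bar a median; the vertical axes are log10 of (TPM + 1) of Rn7s1 (left) and Malat1 (right), with sets of cells along the horizontal axes. Rn7s1 has a median of 3810 TPM in ogp2 and 953 TPM in ogp quiescent cells, and Malat1 has a median of 16582 TPM in ogp2 and 34220 TPM in ogp quiescent cells.

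Within the ogp series Rn7s1 followed the cell number in the name. The Spearman correlation between Rn7s1 and that number was -0.38 over the 57 ogp2 cells, against -0.67 over the 50 ogp cells and -0.70 over the 46 ogp cells with a full column sum. With the cells of a series put in order of their number and divided in 3, a division chosen after the values were seen, the 19 ogp2 cells numbered 2 to 34 had a median of 4633 TPM, those numbered 35 to 67 had 3437 and those numbered 68 to 96 had 3721. In ogp the 17 cells numbered 1 to 38 had a median of 4974 TPM, the 17 numbered 40 to 67 had 881, and the 16 numbered 69 to 110 had 668. The first ogp cells were therefore at the level of ogp2, and the later ones were below it, with at least 1000 TPM in 14, 8 and 3 cells of the 3 divisions. Genes detected at 1 TPM or more had a Spearman correlation of -0.44 with cell number in ogp2 and 0.19 in ogp. That between Rn7s1 and genes detected was 0.28 in ogp2 and -0.23 in ogp. These correlations describe the cells of each series and were not tested.

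**Figure D2:**
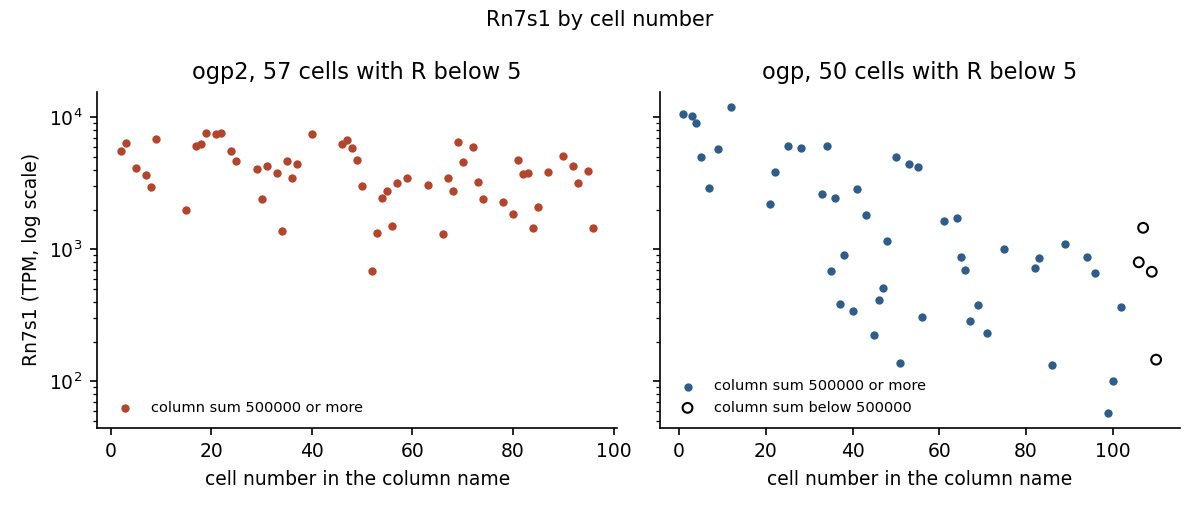
Each point is a quiescent cell; the horizontal axis is the cell number in its column name and the vertical axis Rn7s1 in TPM on a log scale, with ogp2 on the left, ogp on the right and open circles for the 4 ogp columns that sum to less than 500000. Rn7s1 is high in ogp cells with low numbers (median 4974 TPM up to number 38) and lower in those with high numbers (median 668 TPM from number 69).

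Most proteins of the signal recognition particle and the channel stood at like mean levels in both series. Of 24 proteins of the particle, its receptor and the translocon that were compared, 22 lay within 0.5 on the log2 scale and 0 passed 2-fold. Of all compared genes 10.8% were at least 2-fold higher and 14.9% at least 2-fold lower. The median difference of the 24 was -0.03, which turned to 0.06 when columns were not rescaled. Ssr2 differed most, at -0.74, or -1.56 by the mean over cells of log2(TPM + 1). Its medians were 0.74 TPM in ogp2 and 154 TPM in ogp. Srp9, a protein that binds the Alu end of 7SL RNA, averaged 101.7 TPM (SD 155) in ogp2 and 72.1 TPM (SD 132) in ogp. Rn7sk, which holds 7SK RNA, another RNA polymerase III transcript and an inhibitor of the elongation factor P-TEFb, was at 1 TPM or more in 22 of 57 ogp2 cells (38.6%, interval 26.0 to 52.4) and 11 of 50 ogp cells (22%, interval 11.5 to 35.96). Among 14 small structured RNAs of the list only Rn7s1, Rn7s2 and Rn7sk reached the 10 TPM needed for comparison.

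Malat1 went the other way and was the most abundant of the transcripts lower in ogp2 by over 0.5 on the log2 scale. Malat1 is a long RNA kept in nuclear speckles (chr19:5795690-5802672, GRCm38). It had a median of 16582 TPM in ogp2 quiescent cells (2912 to 42921) and 34220 TPM in ogp quiescent cells (2.18 to 102330). Of the ogp2 cells, 6 of 57 lay above the ogp median (10.5%, interval 3.96 to 21.5). Means were 19122 TPM (SD 9128) in ogp2 and 37364 TPM (SD 18998) in ogp, a log2 difference of -0.97, or -0.92 without the low column sums. The ogp cell at 2.18 TPM was number 50, the cell with the fewest genes detected in its series (1937).

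The Spearman correlation of Malat1 with cell number was near 0, with a value of 0.03 in ogp2 and 0.17 in ogp. Above the limit on R the Malat1 medians lay close, at 5691 TPM in 8 ogp2 cells and 5216 TPM in 18 ogp cells. Neat1, the long RNA of nuclear paraspeckles, averaged 59.2 TPM (SD 90.6) in ogp2 and 60.0 TPM (SD 113) in ogp. Meg3, an imprinted long RNA, averaged 158 TPM (SD 448) in ogp2 and 131 TPM (SD 351) in ogp. The class of long intergenic RNAs, which includes Malat1, took a median of 2.47% of TPM per ogp2 cell and 4.30% per ogp cell. Its means were 2.69% in ogp2 and 4.65% in ogp. Malat1 alone averaged 19122 TPM in ogp2 and 37364 TPM in ogp out of 1000000, so most of the gap in the class was Malat1. Protein-coding genes took a median of 87.6% in ogp2 and 84.5% in ogp.

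Most of what was measured repeated between the series. A gene was compared when its mean reached 10 TPM in either series, which 8851 genes did, and its difference is log2 of (mean TPM + 1) in ogp2 cells over that in ogp cells. Across these genes the means had a Pearson correlation of 0.82 and a Spearman correlation of 0.83 on that scale, and the shares of cells with the transcript had a Spearman correlation of 0.89. Genes are not independent replicates, and low genes can be set by few cells. Of the 100 most abundant genes of each series, 93 were shared. Single cells were about as alike within a series as across, with median correlations across genes of 0.338 for pairs of ogp2 cells, 0.318 for pairs of ogp cells and 0.326 for an ogp2 cell with an ogp cell. No columns were identical.

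Among the 2580 genes with a mean of 50 TPM or more in both series, 1995 (77.3%) lay within 0.5 on the log2 scale and 1 (0.0388%) passed 4-fold. The 141 genes at 500 TPM or more and in 90% of the cells of both series held 127 within 0.5, 8 higher and 6 lower in ogp2. Cst3, which encodes the protease inhibitor cystatin C, was the most abundant, with 45765 TPM (SD 15549) in ogp2 and 52998 TPM (SD 23256) in ogp. Ckb, the brain creatine kinase, had 6196 TPM (SD 2213) in ogp2 and 5938 TPM (SD 2276) in ogp. Gapdh of glycolysis had 3942 TPM (SD 1608) in ogp2 and 4075 TPM (SD 2162) in ogp. Each of these genes differed by less than the spread between cells.

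**Figure D3:**
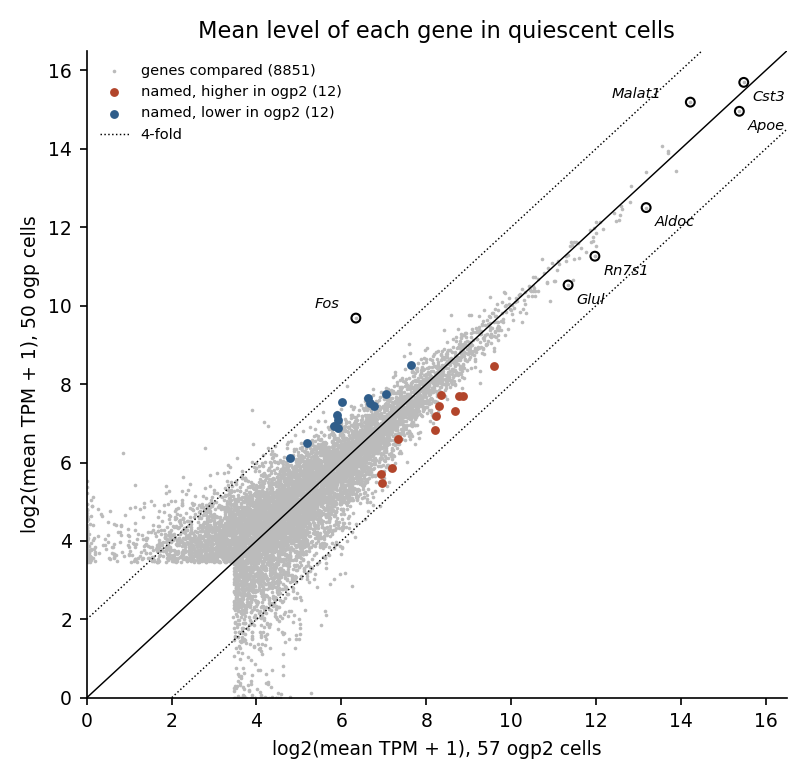
Each point is 1 of 8851 genes, with log2 of (mean TPM + 1) over 57 ogp2 quiescent cells on the horizontal axis and over 50 ogp quiescent cells on the vertical axis; dotted lines mark 4-fold. Points close on the diagonal as levels rise, the 4-fold genes lie at the low end, and the 12 named genes higher and 12 lower in ogp2 lie between the dotted lines.

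The cells had the expression of quiescent stem cells or astrocytes in both series. All 24 markers of that state were compared and detected in 78.9% or more of the ogp2 cells and 82% or more of the ogp cells, 20 lay within 0.5, 0 passed 2-fold, and the median difference was 0.08. Slc1a3, which encodes the sorted glutamate transporter GLAST, averaged 4077 TPM (SD 1526) in ogp2 and 3707 TPM (SD 1702) in ogp. Apoe, the lipid carrier, averaged 42594 TPM (SD 11984) in ogp2 and 31791 TPM (SD 11413) in ogp. Sox9, a glial and stem cell transcription factor, averaged 300 TPM (SD 176) in ogp2 and 278 TPM (SD 191) in ogp. Prom1, which encodes the sorted CD133, was at 1 TPM or more in 2 of 57 ogp2 cells (3.51%, interval 0.428 to 12.1) and 4 of 50 ogp cells (8%, interval 2.22 to 19.2), so the transcript of 1 gate was seldom detected in either.

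Marker lists of other cells ranged from summed levels near 0 to the endothelial list, which Bsg carried. The markers of each list summed to medians per cell of 1.41 TPM in ogp2 and 69.8 TPM in ogp for activated stem cells (16 genes, 3 compared), and 0.060 TPM in ogp2 and 0.225 TPM in ogp for neuroblasts (14 genes, 0 compared). For microglia (12 genes) the summed medians were 5.30 TPM in ogp2 (0 to 871) and 0.645 TPM in ogp (0 to 4758). Cx3cr1, Tmem119, C1qc and Fcer1g reached 1 TPM in no quiescent cell of either series. Csf1r, C1qa and Tyrobp reached it in ogp alone, and Ctss and Aif1 in ogp2 alone. C1qb, a complement gene of microglia, averaged 0.818 TPM in ogp2 (4 cells) and 75.2 TPM in ogp, where 1 cell reached 1 TPM. Foxj1 of ependymal cells reached 1 TPM in no quiescent ogp2 cell, and Tmem212, Ccdc153 and Hydin in no quiescent cell of either series, while the summed ependymal markers had a median of 210 TPM in ogp2 (0 to 1063) and 193 TPM in ogp (0 to 2255). Oligodendrocyte lineage markers summed to a median of 204 TPM in ogp2 (0 to 8430) and 377 TPM in ogp (0 to 8166). Endothelial markers summed to a median of 997 TPM in ogp2 (1.38 to 7029) and 855 TPM in ogp (3.35 to 2841), of which Bsg, which glia also express, averaged 1296 TPM in ogp2 and 902 TPM in ogp. The defining endothelial genes Cldn5, Flt1 and Cdh5 reached 1 TPM in no quiescent cell of either series. Mbp, of myelin, was in 5 ogp2 cells and 11 ogp cells, with means of 16.7 TPM (SD 61.7) in ogp2 and 59.6 TPM (SD 128) in ogp.

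The 8 abundant genes that were higher in ogp2 were Rn7s1 and Rn7s2, Glul, Id2, Aldoc, Acsbg1, Tsc22d4 and Bsg. Glul (chr1:153899944-153909723), the glutamine synthetase that detoxifies glutamate and ammonia in astrocytes, had a median of 2401 TPM in ogp2 cells (163 to 6049) and 1341 TPM in ogp cells (88.0 to 4067). Its means were 2597 TPM (SD 1245) in ogp2 and 1474 TPM (SD 965) in ogp, a log2 difference of 0.82, and 50 of 57 ogp2 cells lay above the ogp median (87.7%, interval 76.3 to 94.9). The ranges overlapped over most of their length.

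Aldoc (chr11:78322968-78327781), the glycolytic aldolase of astrocytes, had a median of 8874 TPM in ogp2 cells (1622 to 17784) and 5284 TPM in ogp cells (662 to 14899). Above the ogp median lay 55 of 57 ogp2 cells (96.5%, interval 87.9 to 99.6). The log2 difference of the means was 0.68. Acsbg1, an acyl-CoA synthetase of very long fatty acids in brain, had a median of 1166 TPM in ogp2 (0 to 2983) and 553 TPM in ogp (1.09 to 2139), a log2 difference of means of 0.67. Id2, an inhibitor of basic helix-loop-helix transcription factors, had a median of 1573 TPM in ogp2 (0 to 6365) and 1008 TPM in ogp (0 to 3484), a log2 difference of means of 0.78. Tsc22d4, a transcription regulator, averaged 921 TPM (SD 559) in ogp2 and 604 TPM (SD 401) in ogp. Bsg, the basigin that escorts lactate transporters to the membrane, averaged 1296 TPM (SD 1191) in ogp2 and 902 TPM (SD 612) in ogp.

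The 6 abundant genes that were lower in ogp2 were Malat1, Cox6b1, 3 pseudogenes and Gm37376, whose class is undecided in the annotation. Gm37376 (chr19:5801941-5802393) lies within the span of Malat1, with means of 11992 TPM in ogp2 and 17136 TPM in ogp. It may therefore not be a difference separate from that of Malat1. Cox6b1, a subunit of cytochrome c oxidase, had a median of 581 TPM in ogp2 (0 to 1879) and 705 TPM in ogp (0 to 3446), a log2 difference of means of -0.53. The pseudogenes can share reads with near-identical copies and their levels are uncertain.

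Means that differed by 4-fold or more belonged to genes held by few cells. In ogp2, 216 genes were at least 4-fold higher (2.44% of the 8851) and 366 at least 4-fold lower (4.14%). Their median level in the series where they were higher was 17.9 TPM for those higher in ogp2 and 17.6 TPM for those lower, and the median gene was in 6 cells of that series in either direction. In 50% or more of the cells of the higher series were 1 of the 216 and 6 of the 366. A gene that reaches 10 TPM in 1 series alone enters the comparison because it differs, and with 10 TPM required in both series the counts were 13 higher and 11 lower. Without the low column sums the counts were 240 higher and 385 lower. Of the 216 genes 192 were called again (88.9%, and 80% of the 240), and of the 366 genes 327 (89.3%, and 84.9% of the 385).

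Leaving aside predicted genes and pseudogenes, no gene had 50 TPM or more, detection in 50% of the cells of the higher series and a 4-fold difference at once. Those nearest to it were Rab31, a small GTPase of vesicle transport, with 186 TPM (SD 225) in ogp2 and 63.6 TPM (SD 90.5) in ogp, a log2 difference of 1.53, and Apobec3, a cytidine deaminase that restricts retroviruses, with 15.7 TPM (SD 54.7) in ogp2 and 59.4 TPM (SD 111.2) in ogp, a log2 difference of -1.85. Genes were then named by the mean over cells of log2(TPM + 1), a rule chosen after values were seen, among genes with 50 TPM and detection in 50% of the cells of the higher series. On that scale the median difference over all compared genes was -0.13. There were 320 genes at least 1 higher in ogp2 (3.62%) and 616 at least 1 lower (6.96%). The 12 with the largest differences in each direction kept their direction, at 1 or more, without the low column sums. That repeat used the same 57 ogp2 cells and 46 of the same 50 ogp cells that named the genes. It is therefore no separate support for them.

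The 12 genes named as higher in ogp2 were Vta1, Mrpl42, Id3, Atp6v0d1, Ubl3, Oaf, Ppid, Csdc2, C1qtnf5, Suclg1, Dhrs3 and Pacsin3. Csdc2, an RNA-binding protein with a cold-shock domain (chr15:81936759-81950941), had a median of 359 TPM in ogp2 (0 to 1193) and 139 TPM in ogp (0 to 746), and was in 50 of 57 ogp2 cells and 36 of 50 ogp cells. Id3, a target of BMP signalling (chr4:136143497-136145755), had a median of 437 TPM in ogp2 (0 to 3323) and 161 TPM in ogp (0 to 2823), and was in 46 ogp2 cells and 30 ogp cells. Striatal astrocytes averaged 2650 TPM of Id3 in their separate table. Oaf, a secreted protein, had a median of 358 TPM in ogp2 (0 to 1644) and 156 TPM in ogp (0 to 996). Suclg1, a subunit of the succinyl-CoA ligase of the citric acid cycle, had a median of 402 TPM in ogp2 (0 to 1075) and 195 TPM in ogp (0 to 860). For each of these the series overlapped from 0 up to the highest ogp cell.

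Vta1, a partner of Vps4 in the sorting of endosomes, was in 34 of 57 ogp2 cells (59.6%, interval 45.8 to 72.4) and 14 of 50 ogp cells (28%, interval 16.2 to 42.5). Mrpl42, of the mitochondrial ribosome, was in 37 ogp2 cells and 19 ogp cells. Atp6v0d1, of the proton pump that acidifies lysosomes, was in 47 ogp2 cells (82.5%, interval 70.1 to 91.3) and 25 ogp cells (50%, interval 35.5 to 64.5). The log2 differences of means were 1.39 for Vta1, 0.85 for Mrpl42 and 0.75 for Atp6v0d1. In cells with 3000 to 4500 genes detected (26 in ogp2 and 37 in ogp) that of Vta1 was 0.69 and that of Mrpl42 0.21, and that of Pacsin3, an endocytic adaptor, was 0.64 against 1.46 in all cells.

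The 12 genes named as lower in ogp2 were Tmem106b, Drg1, Zfr, Srrm1, Cr1l, Emp2, Trmt112, Cnpy3, Slc20a1, Grk3, Atp5g2 and Tia1. Zfr, a zinc finger protein that binds double-stranded RNA (chr15:12117831-12185683), had means of 63.7 TPM (SD 112) in ogp2 and 185 TPM (SD 221) in ogp, a log2 difference of -1.52, and was in 21 of 57 ogp2 cells and 31 of 50 ogp cells. Tmem106b, a lysosomal membrane protein, was in 26 ogp2 cells (45.6%, interval 32.4 to 59.3) and 40 ogp cells (80%, interval 66.3 to 89.97). Drg1, a ribosome-associated GTPase, was in 18 ogp2 cells (31.6%, interval 19.9 to 45.2) and 43 ogp cells (86%, interval 73.3 to 94.2), although 0 ogp cells lacked it entirely, the lowest being at 0.22 TPM. Many of these cells held it at only a few TPM, with a median of 0.48 TPM in ogp2 and 5.17 TPM in ogp. Atp5g2, a subunit of the membrane ring of ATP synthase, had a median of 149 TPM in ogp2 (0 to 1199) and 361 TPM in ogp (0 to 894). Near-identical paralogs encode the same mature subunit, so its reads may be split. Tia1, an RNA-binding protein of stress granules, had a log2 difference of -0.70, against 0.01 in cells with 3000 to 4500 genes detected.

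Genes higher by the mean of logs had shorter transcripts than those lower, while genes past 4-fold by mean TPM had nearly equal lengths in both directions. The longest annotated transcript had a median of 2160 bases for the 320 higher genes and 3372 for the 616 lower ones, beside 3107 for all 8851. It was 2802 bases for the 216 genes at least 4-fold higher by mean TPM and 2865 for the 366 at least 4-fold lower. Among genes with 50 TPM in both series, divided in 5 by length, the median log2 difference was 0.03, 0.13, 0.09, 0.04 and -0.03 from shortest to longest, with no steady trend. G or C made up a median of 50.8% of the higher, 48.6% of the lower and 49.2% of all. In ogp2 cells a median of 2982 genes reached 1 TPM (2068 to 5145) and in ogp cells 3500 (1937 to 5782). The part of transcript length and of genes detected in these differences was not tested.

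The gene lists were read against 47.6% of all compared genes being higher in ogp2 and a median difference of -0.05, which became 0.08 with columns as deposited. Genes were at least 2-fold higher in 10.8% and at least 2-fold lower in 14.9% of all cases. Lists of energy and sterol metabolism stood at the higher end. Of 23 genes of cholesterol synthesis and uptake compared, 21 were higher in ogp2, 3 at least 2-fold, with a median difference of 0.53. Mvd, which makes isopentenyl diphosphate, averaged 138 TPM (SD 293) in ogp2 and 44.3 TPM (SD 93.9) in ogp, in 22 ogp2 cells and 12 ogp cells. Sqle, the squalene epoxidase, averaged 139 TPM (SD 185) in ogp2 and 73.5 TPM (SD 117) in ogp. Every SD here was larger than its mean, and Cyp51, a demethylase of the same route, had 27.3 TPM (SD 48.3) in ogp2 and 47.2 TPM (SD 84.5) in ogp.

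Of 20 genes of glycolysis and lactate compared, 17 were higher in ogp2, with a median of 0.30 and 0 past 2-fold. Aldoc led them, and Pgk1, the phosphoglycerate kinase, averaged 352 TPM (SD 349) in ogp2 and 237 TPM (SD 267) in ogp. Of 76 subunits of the respiratory chain and ATP synthase 48 were higher, with a median of 0.15, and 65 lay within 0.5. Fatty acid oxidation (15 of 23 higher, median 0.19), proteasome subunits (22 of 31, median 0.23) and glutathione and antioxidant genes (21 of 30, median 0.20) stood at similar values. Fasn, the fatty acid synthase, averaged 128 TPM (SD 188) in ogp2 and 53.9 TPM (SD 82.2) in ogp.

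Lists for making RNA and protein stood near or below the median of all genes. Of 46 splicing factors 17 were higher in ogp2 and 29 lower, with a median of -0.24. Mitochondrial ribosomal proteins had 37 of 74 higher and a median of 0.001. Translation factors had a median of -0.04, with 26 of 36 within 0.5, a median that turned to 0.02 when columns were not rescaled. Cytosolic ribosomal proteins, which the choice of cells used, had a median of -0.16 over 83 genes. Host RNAs of small nucleolar RNAs had a median of -0.33 over 11 genes. One of them, Snhg5, was in 6 of 57 ogp2 cells (10.5%, interval 3.96 to 21.5) and 16 of 50 ogp cells (32%, interval 19.5 to 46.7).

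Glial functions were mixed. Of 16 genes of glutamate and GABA handling 6 were higher in ogp2 and 10 lower, with a median of -0.33. Slc6a11, the GABA transporter GAT3 of astrocytes, averaged 106.3 TPM (SD 110) in ogp2 and 234 TPM (SD 227) in ogp, opposite in direction to Glul. Got2, the mitochondrial aspartate aminotransferase, was in 13 ogp2 cells and 2 ogp cells. Its means were 34.6 TPM (SD 74.03) in ogp2 and 3.72 TPM (SD 26.0) in ogp. Got2 was thus below 10 TPM in ogp and entered the comparison only through ogp2, so that its direction was fixed. Slc1a2, the main astrocytic glutamate transporter, averaged 875 TPM (SD 431) in ogp2 and 1100 TPM (SD 580) in ogp.

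Signalling lists had medians between -0.38 and 0.11. The Notch target Hes5 averaged 740 TPM (SD 694) in ogp2 and 530 TPM (SD 536) in ogp. Of 15 Notch genes 10 were higher in ogp2. Of 17 BMP and Id genes 9 were, with a median of 0.04 that changed sign to -0.06 by the mean of logs. The median of all genes was -0.05 by mean TPM and -0.13 by the mean of logs, so this list stood above it on both. Of 19 Wnt genes 7 were higher and 12 lower. Ctnnb1, the beta-catenin of that pathway, averaged 32.7 TPM (SD 86.5) in ogp2 and 71.2 TPM (SD 140) in ogp, in 9 ogp2 cells and 18 ogp cells.

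Regional patterning genes, which record where along the ventricle a stem cell arose, had 5 of 13 higher and 8 lower in ogp2. Of all compared genes 47.6% were higher. The median of the list was -0.41. Emx2, a factor of dorsal, cortical origin, was in 3 of 57 ogp2 cells (5.26%, interval 1.10 to 14.6) and 13 of 50 ogp cells (26%, interval 14.6 to 40.3), with means of 2.82 TPM (SD 20.3) in ogp2 and 37.7 TPM (SD 105) in ogp. Nkx2-1, a factor of ventral origin, was in 0 of 57 ogp2 cells, which allows a share of up to 6.27% by the same interval, and in 8 of 50 ogp cells (16%, interval 7.17 to 29.1). Emx2 and Nkx2-1 were the 2 patterning genes past 4-fold, and both entered the comparison only through ogp, where Nkx2-1 averaged 17.03 TPM (SD 49.6). Crym, a thyroid hormone binding protein that marks ventral stem cells, averaged 2829 TPM (SD 3432) in ogp2 and 1602 TPM (SD 2227) in ogp. It was not particular to SVZ cells. In the separate astrocyte table it averaged 1686 TPM (SD 1783) in striatum, with 8 of 13 cells at 1 TPM or more, and 0 TPM in cortex.

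**Figure D4:**
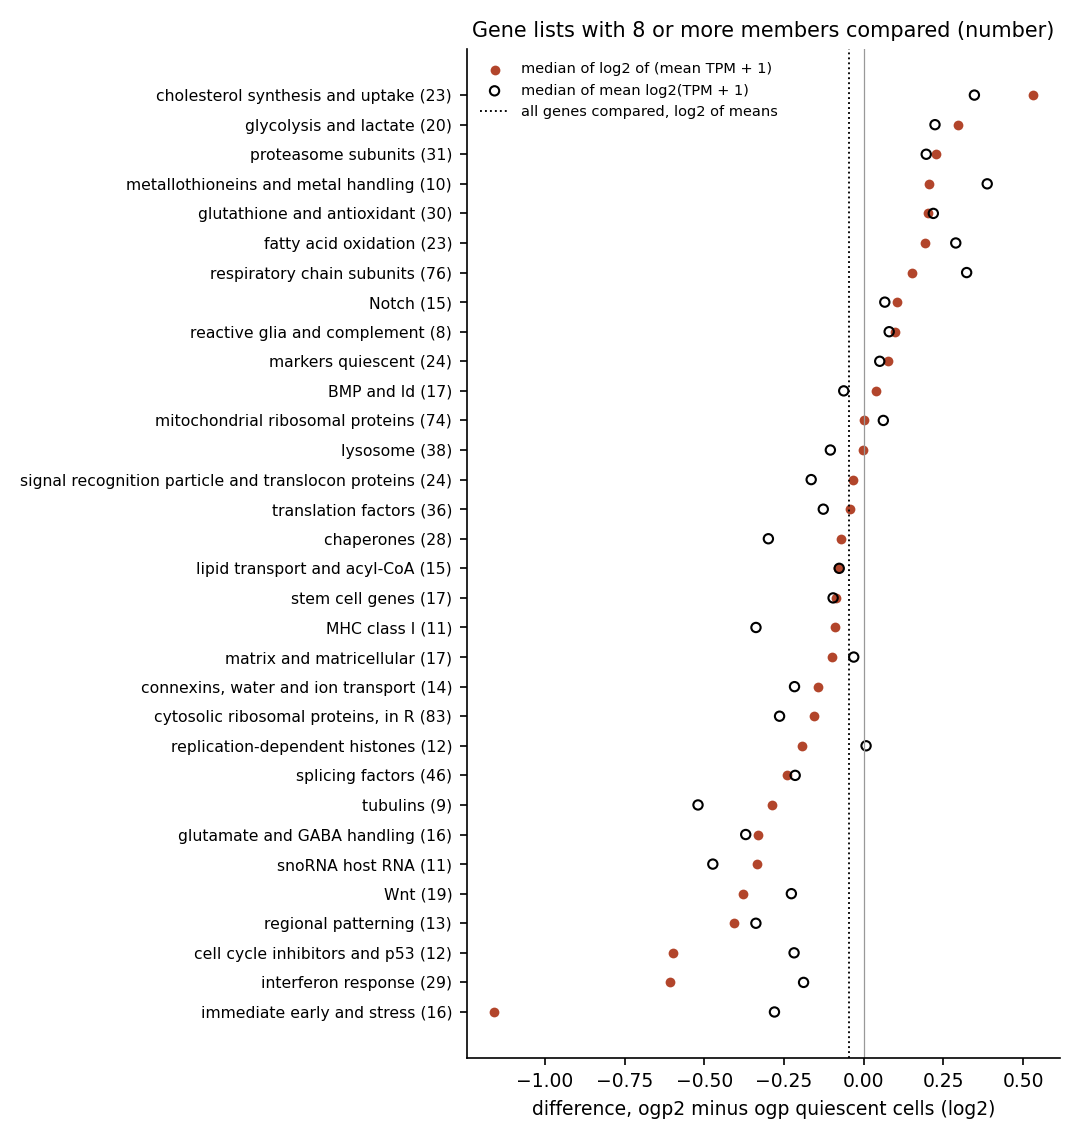
Gene lists with 8 or more members compared, one per line with that number, and the difference ogp2 minus ogp quiescent cells in log2 on the horizontal axis; filled points are medians of log2 of (mean TPM + 1), open points medians of mean log2(TPM + 1), and the dotted line the median of all genes at -0.05. Cholesterol synthesis stands highest at 0.53, and the immediate early list, lowest at -1.16, stands at -0.28 by the mean of logs. By that measure the median of all genes, not drawn, is -0.13.

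Among lists with 8 or more genes compared, immediate early and interferon response genes had the lowest medians, and a few cells held much of the summed levels of both. Of 16 immediate early and stress genes compared, 11 were lower in ogp2 and 6 at least 4-fold (4.14% of all genes were), with a median of -1.16. Of those 6, Nr4a1, Egr1, Zfp36 and Gadd45b were below 10 TPM in ogp2 and entered the comparison only through ogp, so that their direction was fixed. With 10 TPM required in both series the median was -0.13. Fos, a component of the AP-1 factor, was at 1 TPM or more in 6 of 57 ogp2 cells (10.5%, interval 3.96 to 21.5) and 12 of 50 ogp cells (24%, interval 13.1 to 38.2). Its means were 80.2 TPM (SD 533) in ogp2 and 821 TPM (SD 3563) in ogp. Ogp2 cell number 87 held 87.8% of the Fos of its series and ogp cell number 82 held 53.6% of that of its own. Without those cells the means were 9.93 TPM in ogp2 and 388 TPM in ogp. With the low column sums left out as well, the ogp mean was 129 TPM. Fos was then at 1 TPM or more in 10 of 46 ogp cells (21.7%, interval 10.9 to 36.4), cell 82 included.

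In ogp2 the cell numbered 87 was highest for 5 of the 16 immediate early genes. It had 5484 TPM of them in all, against a median of 409 TPM per ogp2 cell. Leaving out this cell with ogp cells 41 and 82 also changed the oligodendrocyte lineage markers, whose list median went from -0.42 to -3.00. The log2 difference of Pdgfra went from 1.88 to -2.58 and that of Olig1 from -0.90 to -5.02. Which type of cell number 87 was in ogp2 was not tested. Ogp cell 82 was highest in its series for 7 of the 16, with 37793 TPM against a median of 384 TPM per ogp cell. The mean of logs gave a list median of -0.28, and leaving out the low column sums gave -0.52. Dusp1, a phosphatase induced with Fos, averaged 64.5 TPM (SD 135) in ogp2 and 70.9 TPM (SD 270) in ogp, in 13 ogp2 cells and 7 ogp cells.

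Of 29 interferon response genes compared, 7 were higher in ogp2 and 22 lower, with 1 at least 4-fold higher (2.44% of all genes were) and 6 at least 4-fold lower (4.14%), and a median of -0.61. Of those 6, Irf7, Irf9, Stat2, Rsad2 and Xaf1 were below 10 TPM in ogp2 and entered the comparison only through ogp. Ifit2, the 1 at least 4-fold higher, was below 10 TPM in ogp and entered only through ogp2. The direction of these genes was therefore fixed. With 10 TPM required in both series the median was -0.52. Their summed level had a median of 981 TPM per ogp2 cell and 1040 TPM per ogp cell, so the typical cells of both series were close. Ogp2 cell number 92 was highest in its series for 5 of the 29, with 8405 TPM in all, and ogp cell number 41 for 20 of the 29, with 30139 TPM. Irf7, a transcription factor of the response, was in 0 ogp2 cells and 6 ogp cells (12%, interval 4.53 to 24.3), with 67.2% of its ogp sum in cell 41. Without the highest cell of each gene the interferon median was -0.59 and the immediate early median -0.58. Without ogp cells 41 and 82 and ogp2 cells 87 and 92 they were -0.30 and -0.72, and with ogp2 cell 92 kept, -0.16 and -0.67. Leaving out these numbered cells was chosen after the values were seen.

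Several genes of interest in quiescent stem cells were carried by only some cells, and for those described next the intervals of the shares overlapped between the series. The difference was not tested. Crym was at 1 TPM or more in 39 of 57 ogp2 cells (68.4%, interval 54.8 to 80.1) and 30 of 50 ogp cells (60%, interval 45.2 to 73.6). Gfap, the intermediate filament of astrocytes, was in 14 ogp2 cells (24.6%, interval 14.1 to 37.8) and 11 ogp cells (22%, interval 11.5 to 35.96). Its means were 159 TPM (SD 392) in ogp2 and 89.7 TPM (SD 442) in ogp, and the highest ogp cell had 3082 TPM. Sfrp5, a secreted Wnt inhibitor, was in 17 ogp2 cells (29.8%) and 15 ogp cells (30%). Cdkn1b, the cell cycle inhibitor p27, averaged 16.8 TPM in both, in 37 ogp2 cells (64.9%) and 33 ogp cells (66%). Cdkn1a, the inhibitor p21, reached 1 TPM in 0 of 57 ogp2 cells (upper bound 6.27%) and 0 of 50 ogp cells (upper bound 7.11%).

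Thbs4, a matrix protein of SVZ stem cells, was in 11 ogp2 cells (19.3%, interval 10.0 to 31.9) and 17 ogp cells (34%, interval 21.2 to 48.8), intervals that overlap. Igfbp5, which binds insulin-like growth factors, was in 25 ogp2 cells (43.9%, interval 30.7 to 57.6) and 27 ogp cells (54%, interval 39.3 to 68.2). The complement gene C4b was in 50 ogp2 cells (87.7%) and 42 ogp cells (84%), with means of 235 TPM (SD 254) in ogp2 and 292 TPM (SD 425) in ogp. Mt1, a metallothionein that buffers zinc and copper, was in every cell, with 6105 TPM (SD 2610) in ogp2 and 5068 TPM (SD 3206) in ogp. The Y-linked Ddx3y was in 20 ogp2 cells (35.1%) and 18 ogp cells (36%), while Xist was in 1 cell of each series.

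**Figure D5:**
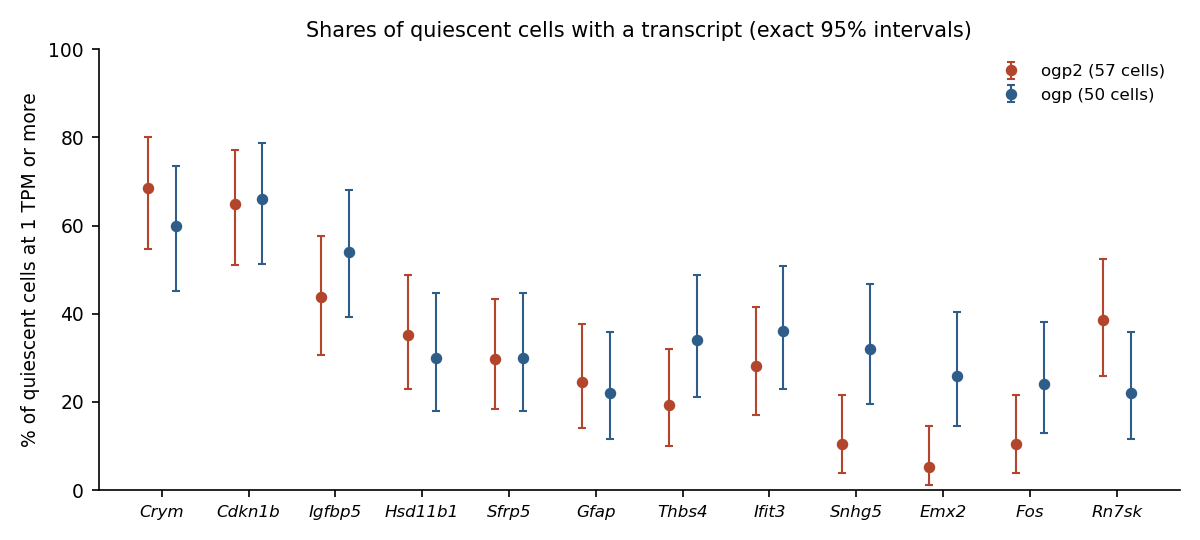
Percent of quiescent cells at 1 TPM or more for 12 genes along the horizontal axis, with exact 95% intervals and ogp2 left of ogp for each gene. Intervals overlap for most genes, from Crym (68.4% in ogp2 and 60% in ogp) to Gfap (24.6% in ogp2 and 22% in ogp), and are farthest apart for Emx2 (5.26% in ogp2 and 26% in ogp).

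The cells with R of 5 or more, which had no part in naming the genes, showed the named directions about as often as the background did by the mean of logs, and less often for the genes named as lower by the mean TPM. By the mean of logs, the measure that named the genes, 5 of the 11 genes named as higher in ogp2 that could be compared there were again higher (45.5%), beside 35.7% of the 7565 genes compared in both sets. Of the 12 named as lower, 8 were again lower (66.7%), beside 64.3% of all. Of the 320 genes higher by 1 or more 134 of 307 were again higher (43.6%), and of the 616 lower 362 of 563 were again lower (64.3%).

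By the mean TPM the same genes gave other counts. There 6 of the 11 named as higher were again higher (54.5%, beside 51.4% of all) and 3 of the 12 named as lower were again lower (25%, beside 48.6% of all). These 8 ogp2 and 18 ogp cells also differed in state, since the median difference of the 24 quiescent markers was 1.56 there. Glul had a log2 difference of means of 1.69, Aldoc of 2.08 and Rn7s1 of 1.54 in those cells.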

How the data were processed

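RNA of single cells was read by Smart-seq2. The values are TPM as the authors deposited them, and the submitters' processing notes name mm10, RSEM 1.2.18 and STAR 2.4.0g1; the gene annotation is not given in the sources used here. The 18 population libraries among 168 samples were not analysed here. Of 43309 identifiers, 42425 had a symbol in the reference table. Where several identifiers had 1 symbol, only the most abundant in SVZ cells was used (42405 symbols), and 0 mitochondrially encoded genes are listed.

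Each column was rescaled to 1000000 TPM. Columns summed to 999576 or more except 5 of the ogp series (66189 to 309864), of which 4 were quiescent; what they lack is not stated. TPM keeps no counts, so depth is unknown, and no count test was run. Each series is 1 sample, so no test was run. No doublet caller was run on these hand-picked cells. Python 3.11.15, pandas 2.3.3 and scipy 1.17.1 were used. The log2 difference of means was checked on values of the quiescent cells shuffled within each gene, with 4-fold changes planted. That check covered genes with a mean of 50 TPM or more and did not cover the mean of logs or lower genes.

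The members, lists and rules were chosen with earlier results of these data known. The first rule for named genes (50 TPM and detection in 50% of the cells of the higher series, 4-fold) found 0 genes in either direction; the rule by mean log2(TPM + 1), the division of cell numbers, the single cells left out and some printed genes (Sqle, Cyp51, Dusp1, Slc1a2, Sox9, Fos, Nkx2-1, Rab31 and Apobec3) were chosen after values were seen. Most other list members printed are among the 4 with the largest differences in their list at 20 TPM or more. The rest include Irf9, Rsad2, Xaf1 and Gadd45b, named for being at least 4-fold lower, and Xist and marker genes named for their detection. Alternatives numbered 13 planned and 2 added.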

Additional observations from a re-analysis of the deposited data

How the results depend on the processing

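With 1 sample per series no replicate could be left out. No paired analysis was possible because the numbers that the series share are cell numbers and no test was made. The counts of genes at least 4-fold higher and lower in ogp2, 216 and 366, were 6 and 15 with pseudocount 10, 13 and 11 with 10 TPM required in both series, 13 and 12 by the mean of logs, 599 and 949 with no filter on low values, and 498 and 594 in the 26 ogp2 and 37 ogp cells with 3000 to 4500 genes. With R below 10 they were 125 and 390. Under the other 9 alternatives, which include no rescaling (260 and 312), they were within 1.5 times. The count of genes within 0.5 and the log2 ratio of Rn7s1 medians moved by less than that in each alternative that applied to them. Medians of 34 of 45 lists never moved by more than 1.5-fold, and 11 did in at least 1 alternative, among them immediate early genes (-0.01 with no filter). Of the 24 named genes, all but Pacsin3 moved by more than that under the mean of logs, the measure that named them. For example, C1qtnf5 had 0.62 by mean TPM and 2.04 by the mean of logs, and Srrm1 had -0.66 and -2.26. In cells with 3000 to 4500 genes, Vta1, Mrpl42, Pacsin3 and Tia1 moved by more than 1.5-fold. The log2 difference of C1qb, -5.39 and set by 1 ogp cell, turned to 0.14 without the highest cell of each gene, 0.15 with R below 3 and 1.40 in cells with 3000 to 4500 genes, and that of Glb1, 2.20, to -0.12 in the last. Depth is unknown, and a mean under about 20 TPM can rest on few cells.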
